A study of Mus musculus with 16 samples.

Results

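The transcriptional response of the wild-type neonatal ventricle to myocardial infarction (MI) was taken from 4 libraries of infarcted hearts (WT MI) and 4 libraries of sham-operated hearts (WT SH). Genes were included where the counts summed over a group reached 10 in WT MI and in WT SH alike, which gave 20694 of the 51912 genes in the deposited table. Across all 16 libraries of the series, 32919 genes had at least 1 count.

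WT mice were C57BL/6 J animals from Jackson Laboratories. In WT MI mice the left anterior descending coronary artery was ligated at postnatal day 1, under anaesthesia by cooling, whereas WT SH mice had the chest opened and closed without the heart being exposed or the artery tied. For the ligation the heart was also brought out of the chest, so effects of its exposure and of the infarct cannot be told apart. Ventricles were taken 7 days after surgery as bulk tissue, and the study describes no separation of infarct, border and remote myocardium. Mice with a whole-body deletion of *Lrrc10* on a C57BL/6 background (*Lrrc10*-/-, KO) received the same operations, and their libraries (KO MI and KO SH, 4 of each) served only as a comparison. RNA alone was measured, and regeneration itself was not a readout of these libraries.

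The newborn mouse heart can replace lost myocardium for a few days after birth, and loses this capacity within the first week of life. Its response to an infarct is known to include clearance of dead tissue by neutrophils and macrophages, activation of the epicardium (the mesothelial layer around the heart), deposition of a temporary matrix, and renewed division of cardiomyocytes. Expression in whole ventricles sums all of these cells. A gene can therefore rise because more cells of a type are present or because each cell holds more of its RNA, and these cannot be told apart in such libraries.

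The WT libraries held between 37842114 and 57470159 counts. Levels are given as CPM (counts scaled to a library of 1e+06, with TMM factors), and 3 counts, taken as the floor below which a level is not told from absence, correspond to between 0.0576 and 0.0857 CPM in WT libraries. Differences are log2 fold changes of WT MI over WT SH from edgeR's quasi-likelihood fit. Their standard errors (SE) were back-calculated as the absolute log2 fold change divided by the square root of the test's F statistic. A gene was called where its Benjamini-Hochberg adjusted p was under 0.1 and its log2 fold change was 0.5 or more in either direction. The defining genes of ventricular myocardium were abundant in each WT library, and *Lrrc10* stood between 27.5 and 35.5 CPM in WT SH and between 26.2 and 29.1 CPM in WT MI, against 0 in each KO library. The WT MI and WT SH groups were not balanced for sex. *Xist*, the RNA that coats the inactive X chromosome of female cells, reached 919 CPM in replicate 2 and 942 CPM in replicate 4 of WT MI, whereas replicates 1 and 3 had 8.78 and 16.5 CPM. In all 4 WT SH libraries it stayed between 6.17 and 9.76 CPM. The summed level of 4 Y-linked genes ran from 159.7 to 165 CPM in WT SH, and in WT MI it was 153 CPM for replicate 1, 149 CPM for replicate 3, 1.33 CPM for replicate 2 and 0.803 CPM for replicate 4. The study's methods describe the groups as sex-balanced, which these WT SH libraries are not by *Xist* and Y-linked levels. The sample labels give no sex. Main counts are therefore also given without both high-*Xist* libraries, which leaves 2 WT MI libraries in the fit.

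The infarct response was dominated by rises. Of the 20694 genes tested, 562 were called (2.72%), 437 of them higher (2.11%) and 125 lower (0.604%) in WT MI. Higher genes thus made up 77.8% of the calls. The median log2 fold change of the called genes was 1.06 for those that rose and -0.77 for those that fell, and 232 rose by at least 1 whereas 37 fell by at least 1 on this scale. The median over all genes tested was -0.0048. WT MI libraries did not overlap WT SH libraries for 386 of the 437 higher and 101 of the 125 lower genes, while 6.06% of all genes tested lay wholly above and 5.78% wholly below. Protein-coding genes supplied 334 of the higher and 69 of the lower calls, long noncoding RNAs 19 and 25, and 19 calls lay on the X or Y chromosome. An unadjusted p under 0.05 was reached by 3334 genes (16.1%). The first principal component of the 8 WT libraries held 25.6% of their variance and placed WT SH between -35.4 and -19.97 and WT MI between 18.5 and 41.9.

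**Figure D1:**
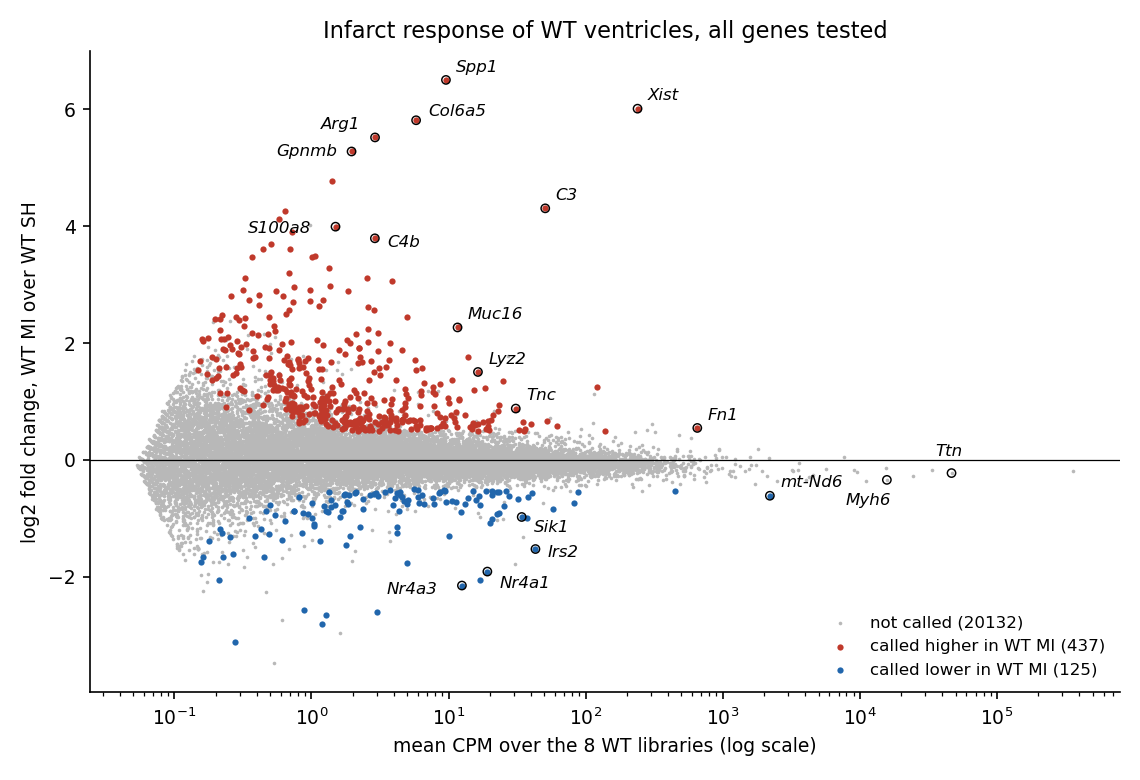
Log2 fold change of WT MI over WT SH against the mean CPM of the 8 WT libraries (log scale) for the 20694 genes tested, with the 437 genes called higher in red and the 125 called lower in blue. *Spp1*, *Col6a5*, *Arg1*, *Gpnmb* and *C3* reach beyond 4, while the falls of *Nr4a3* and *Nr4a1* lie near -2 and the abundant muscle genes *Ttn* and *Myh6* sit just under 0.

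These counts depended on single libraries. Without both high-*Xist* libraries 134 genes were called, 99 higher and 35 lower, of which 97 and 30 were also called with all libraries. Of the 556 called genes that could still be tested then, 556 kept the sign of their change. That fit reuses the same libraries, so the sign was nearly fixed for genes without overlap and is no result. With high *Xist* as a covariate instead, 431 genes were called (346 higher and 85 lower), and 316 and 75 of them were shared. Leaving out WT MI replicate 2 alone gave 279 calls, leaving out WT SH replicate 1 gave 366, and leaving out WT SH replicate 3 gave 374. *Xist* itself was among the genes called higher.

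Among called genes with a mean of at least 1 CPM, no overlap and a proper symbol, *Xist* aside, the largest rises included genes known from phagocytes and from matrix. *Spp1*, which encodes the matricellular protein osteopontin, was at 0.115, 0.187, 0.229 and 0.314 CPM in WT SH and at 6.79, 25.9, 24.3 and 18.9 CPM in WT MI. All 4 infarcted hearts were far above all sham hearts, with replicate 1 the lowest of them. Its log2 fold change was 6.50 (SE 0.522, edgeR adjusted p = 3.58e-06). *Arg1*, the arginase of wound macrophages, stood between 0.0384 and 0.171 CPM in WT SH and at 5.95, 10.1, 4.27 and 2.45 CPM in WT MI, a log2 fold change of 5.52 (SE 1.17). *Gpnmb*, a glycoprotein of lipid-laden phagocytes, reached 1.18, 3.81, 6.12 and 4.23 CPM in WT MI from at most 0.187 CPM in WT SH. *Slc7a11*, the cystine importer that serves glutathione synthesis, rose by 4.77 (SE 0.726), and *Clec7a*, the receptor for fungal glucans, by 3.12 (SE 0.454). *Col6a5*, a collagen VI chain, went from between 0.0384 and 0.483 CPM to 13.9, 15.4, 10.4 and 5.91 CPM. The absence of overlap between infarcted and sham hearts in these genes was a condition for naming them and is no result.

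Neutrophil genes were low in sham hearts and rose together. All 8 of the neutrophil and granule genes that could be tested were called higher. Their log2 fold changes had a median of 2.90 and a range from 2.29 to 3.99, where 2.11% of all genes tested were called higher. Of the 14 genes of the list, *Ly6g*, *Mmp8*, *Elane*, *Mpo*, *Camp* and *Cd177* had too few counts to be tested. The summed level of the list was between 1.76 and 2.42 CPM in WT SH and between 7.92 and 26.3 CPM in WT MI. *S100a9*, a subunit of the calcium-binding protein calprotectin, was at 1.23, 0.668, 0.572 and 0.797 CPM in WT SH and at 3.005, 10.02, 6.36 and 8.58 CPM in WT MI. Its partner *S100a8* rose by 3.99 (SE 0.431, edgeR adjusted p = 8.77e-05). Here too replicate 1 was the lowest infarcted heart, and it still lay above every sham heart. *Ngp*, a protein of neutrophil granules, rose by 3.50 (SE 0.353) and *Ltf*, the iron-binding lactoferrin of the same granules, by 2.91 (SE 0.424). *Cxcr2*, the chemokine receptor through which neutrophils are drawn into tissue, and *Csf3r*, the receptor for their growth factor, rose by 2.89 and 2.5. Of the 8 genes, 5 were called without both high-*Xist* libraries, with a median of 2.36.

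Macrophage and monocyte genes were called in part. Of 24 tested, 8 were called higher and 0 lower, against 2.11% and 0.604% of all genes tested. A log2 fold change above 0 was found in 21, and the median was 0.42. The members described next were chosen for their function after their values were seen. *Ccr2*, the receptor that brings monocytes from the blood, stood at 1.27, 0.695, 1.11 and 0.628 CPM in WT SH and at 3.07, 4.28, 2.86 and 3.95 CPM in WT MI (log2 fold change 1.92, SE 0.266, edgeR adjusted p = 0.000978). *Lyz2*, the lysozyme of myeloid cells, was between 7.73 and 9.30 CPM in WT SH and at 12.9, 29.0, 27.1 and 28.0 CPM in WT MI. Replicate 1 stood apart from the other three infarcted hearts for *Lyz2*. *Itgam*, *Cd14*, *Trem2* and *Lgals3* rose by 1.58, 1.70, 1.36 and 2.96. Among members that were not called, *Lyve1*, *Mrc1*, *Mertk* and *Cx3cr1* had log2 fold changes of -0.06, 0.24, -0.01 and 0.15, and *C1qa*, *C1qb* and *C1qc*, the chains of complement C1q, 0.03, 0.26 and 0.21. Without both high-*Xist* libraries 4 of 23 macrophage genes were called, with a median of 0.33.

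Chemokines and interleukins that draw these cells rose with them. Of 23 tested, 6 were called higher and 0 lower, with a median of 0.69, where 2.11% of all genes tested were called higher. *Il1b*, the cytokine that starts much of the acute inflammatory response, was between 0.107 and 0.423 CPM in WT SH and at 1.39, 2.99, 2.99 and 2.45 CPM in WT MI. *Cxcl5*, a ligand of the neutrophil receptor named above, rose by 3.62 (SE 0.668), *Ccl6* by 2.62 (SE 0.446), *Ccl9* by 2.01 (SE 0.364), *Il33*, an alarmin of stromal cells, by 1.67, and *Cxcl1* by 0.98. The monocyte attractant *Ccl2* (0.25), *Tnf* (0.09) and *Il6* (1.37) were not called, and all 3 stood under 1 CPM in each library. *Cxcl12*, the abundant retention signal of stromal cells, had a log2 fold change of -0.14.

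Some complement genes rose, among them *C3* and genes of the classical and alternative pathways. Of 14 tested, 6 were called higher and 0 lower, with a median of 0.71, where 2.11% of all genes tested were called higher. The summed level went from between 118 and 139 CPM to between 202 and 335 CPM. *C3*, on which all complement pathways converge, was at 8.99, 5.53, 3.72 and 0.942 CPM in WT SH and at 85.9, 150, 92.3 and 58.5 CPM in WT MI, the infarcted hearts being all above the sham hearts (log2 fold change 4.31, SE 0.714, edgeR adjusted p = 0.00363). On the log scale the sham hearts differed among themselves more widely than the infarcted hearts, with replicate 4 the lowest. *C4b*, of the classical pathway, rose by 3.79 (SE 0.581), *Cfb*, of the alternative pathway, by 3.20 (SE 0.568), *C2* by 2.02 and the protease *C1ra* by 1.45 (SE 0.32). The membrane-bound inhibitors *Cd55* and *Cd59a* had values of -0.04 and -0.06.

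RNA of genes for class II antigen presentation rose, whereas class I genes were not called. Of 14 MHC and antigen presentation genes tested, 5 were called higher and 0 lower, where 2.11% of all genes tested were called higher. *Cd74*, the invariant chain that guides class II molecules, was between 0.614 and 0.807 CPM in WT SH and at 2.25, 4.41, 2.23 and 2.93 CPM in WT MI. *H2-Aa*, *H2-Ab1* and *H2-Eb1*, the class II chains, rose by 1.77, 1.71 and 1.22, with WT MI replicate 1 inside the sham range for *H2-Aa* and *H2-Ab1*, and *Ctss*, the protease that trims the invariant chain, by 1.76. The class I genes *H2-K1* and *H2-D1* and their partner *B2m* had log2 fold changes of 0.31, 0.15 and 0.35. Of 20 interferon-stimulated genes, only *Zbp1*, a sensor of nucleic acids, was called (1.87, SE 0.464), at under 0.6 CPM in each library, and the median of the list was -0.12. No gene of this list was called by edgeR without WT SH replicate 3, without WT MI replicate 2, without both high-*Xist* libraries or with high *Xist* as a covariate, whereas 3 were called without WT MI replicate 1. *Ifit2* had a value of -0.12. None of the 10 tested T cell, B cell and NK cell genes was called.

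Without both high-*Xist* libraries the counts called higher fell to 5 of 22 chemokine and interleukin genes, 3 of 14 complement genes and 2 of 14 MHC genes, with medians of 0.55, 0.56 and 0.27. Without WT MI replicate 2 alone 4 complement genes remained called.

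**Figure D2:**
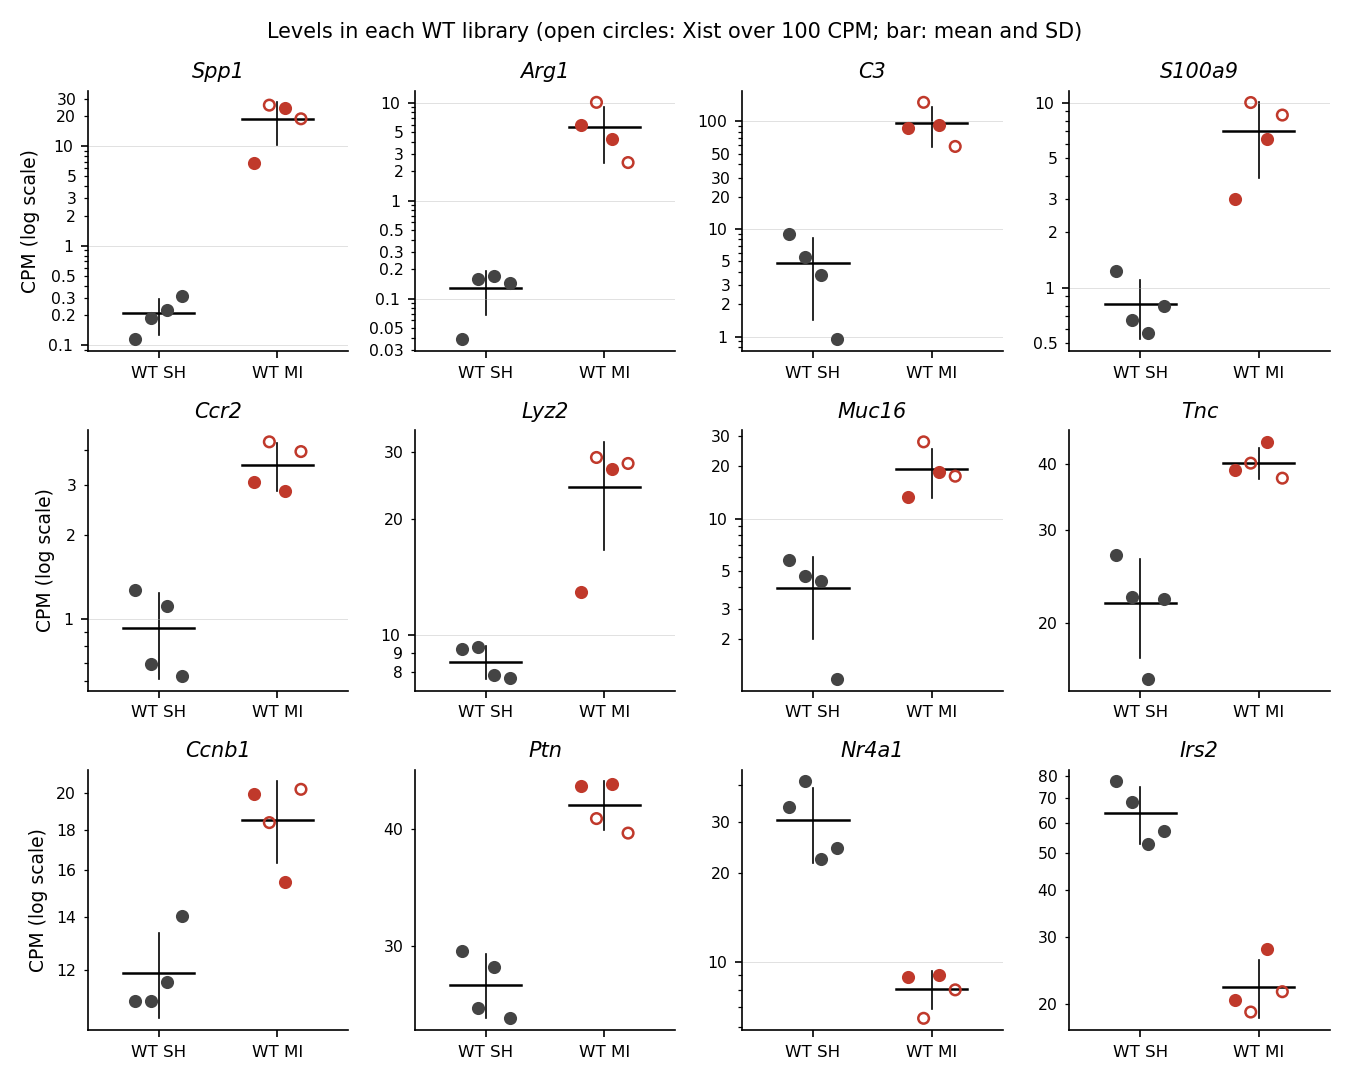
CPM (log scale) of 12 genes in each of the 4 WT SH and 4 WT MI libraries, with a bar for the mean and a line for the SD. Open circles mark the WT MI libraries with *Xist* over 100 CPM, and in each panel the infarcted and the sham hearts do not overlap, with WT MI replicate 1 the lowest infarcted heart for *Spp1*, *S100a9*, *Lyz2* and *Muc16*.

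The epicardial and mesothelial list held the highest share of called genes after the neutrophil list. Of its 14 genes, all of which were tested, 11 were called higher and 0 lower, where 2.11% of all genes tested were called higher. All 14 had a log2 fold change above 0, and the median was 1.71. *Muc16*, a large surface mucin, was at 5.78, 4.62, 4.34 and 1.18 CPM in WT SH and at 13.3, 27.7, 18.6 and 17.6 CPM in WT MI (log2 fold change 2.27, SE 0.394, edgeR adjusted p = 0.00501). *Msln*, which encodes mesothelin and binds this mucin, was between 0.314 and 1.46 CPM in WT SH and at 2.86, 4.24, 3.19 and 3.93 CPM in WT MI. *Bnc1*, a transcription factor of mesothelium, rose by 2.73 (SE 0.447), *Upk1b* and *Upk3b*, tetraspan and uroplakin proteins of the same surface, by 2.97 and 1.75, and *Krt8*, *Krt18* and *Krt19*, the keratins of simple epithelia, by 1.88, 1.02 and 1.66. *Rspo1*, a Wnt amplifier, and *Clu*, a secreted chaperone, rose by 1.56 and 0.69. Sham hearts were not exposed, so handling of the heart surface and the infarct cannot be told apart in these rises.

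The 3 genes of the list that were not called were *Wt1*, *Tbx18* and *Aldh1a2*, the developmental regulators by which fetal and activated epicardium is usually marked. Their log2 fold changes were 0.29, 0.31 and 0.24. The summed level of the list was between 83.7 and 92.7 CPM in WT SH and at 127, 178, 144 and 135 CPM in WT MI. Without both high-*Xist* libraries 4 of the 14 were called with a median of 1.65, and without WT MI replicate 2 alone 7 were called. In the sham hearts replicate 4 had the lowest level of *Muc16*, *Msln* and *Bnc1*, and without it 10 were called with a median of 1.45.

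Some matrix glycoproteins rose, and most collagens were not called. Of 29 matrix glycoproteins and proteoglycans, 7 were called higher and 0 lower, where 2.11% of all genes tested were called higher. A log2 fold change above 0 was found in 26, and the median was 0.34. *Tnc*, the tenascin that appears in healing myocardium, was at 26.8, 22.4, 15.7 and 22.2 CPM in WT SH and at 38.9, 40.1, 44.0 and 37.6 CPM in WT MI, a narrow group well above the sham hearts (log2 fold change 0.88, SE 0.167, edgeR adjusted p = 0.00915). *Fn1*, fibronectin, went from between 495 and 579 CPM to between 732 and 840 CPM (0.55, SE 0.132). *Thbs4* rose by 1.29 (SE 0.296), *Fmod*, a proteoglycan that organises collagen fibrils, by 1.19, *Sfrp2*, a Wnt-binding protein, by 0.77, and *Fbln2* by 0.50. *Postn*, the periostin of activated fibroblasts, had a log2 fold change of 0.38, which passed the test (edgeR adjusted p = 0.00381) but not the fold. *Sfrp2* overlapped between the groups. Without WT MI replicate 2 the glycoproteins called were 2, without WT MI replicate 1 or WT SH replicate 3 they were 4, and without both high-*Xist* libraries 3.

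Of 19 fibrillar and basement membrane collagens, 2 were called, both higher, where 2.11% of all genes tested were called higher. *Col12a1*, which bridges collagen fibrils, was between 9.69 and 18.4 CPM in WT SH and at 36.5, 43.8, 36.8 and 25.2 CPM in WT MI. *Col11a1*, a minor fibrillar collagen, rose by 1.25 (SE 0.335). *Col1a1* and *Col1a2* had log2 fold changes of 0.42 and 0.48, under the fold required for a call, although their libraries did not overlap and their edgeR adjusted p were 0.034 and 0.0126. *Col3a1* had a value of 0.17, and *Col4a1* and *Col4a2* of the basement membrane -0.14 and -0.16. Without a minimum fold, 8 collagens passed the test as higher and 1 as lower, against 630 and 430 of all 20694 genes tested. The count of 2 became 1 without WT SH replicate 2, WT MI replicate 2 or both high-*Xist* libraries, and 4 without WT MI replicate 4. Those passing as higher at any fold were then 4, 2, 1 and 7, and between 3 and 6 without another WT library.

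Enzymes that shape matrix moved in part. Of 24 tested, 5 were called higher and 0 lower, with a median of 0.14, where 2.11% of all genes tested were called higher. *Mmp9*, the gelatinase carried by neutrophils, rose by 3.48 (SE 0.57). *Lox*, which crosslinks collagen and elastin, was between 14.3 and 17.7 CPM in WT SH and at 35.3, 32.6, 27.9 and 26.7 CPM in WT MI. *Timp1*, an inhibitor of matrix metalloproteinases, rose by 0.97 (SE 0.25), *Mmp19* by 0.74 (SE 0.174) and *Adam12* by 0.66 (SE 0.112). *Mmp2* and *Timp2*, which are made throughout the stroma, had values of -0.04 and 0.05. Without WT SH replicate 1 or WT MI replicate 2, 3 enzymes were called, and without both high-*Xist* libraries 2.

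The cells that make matrix showed no such shift. Of 19 fibroblast and myofibroblast genes, *Ltbp2*, which binds to elastic microfibrils, was called higher (1.31, SE 0.297) and the median was -0.06. *Pdgfra*, the receptor that marks cardiac fibroblasts, had a log2 fold change of -0.06, *Tcf21* -0.12, *Acta2*, the actin of myofibroblasts, 0.09, and *Lama2* and *Fstl1* -0.09 and 0.16. Of 20 endothelial and endocardial genes, only *Plvap*, which forms the diaphragms of fenestrae, was called (0.77, SE 0.179). *Kdr* and *Cdh5*, both of endothelium, had values of -0.15 and -0.21, and 10 of the 20 genes had every infarcted heart below every sham heart, against 5.78% of all genes tested. Without WT SH replicate 1, WT MI replicate 1 or WT MI replicate 3, 2 endothelial genes were called, and 0 were called by edgeR without WT MI replicate 2 or both high-*Xist* libraries. None of the 10 mural and smooth muscle genes was called, with a median of -0.18.

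**Figure D3:**
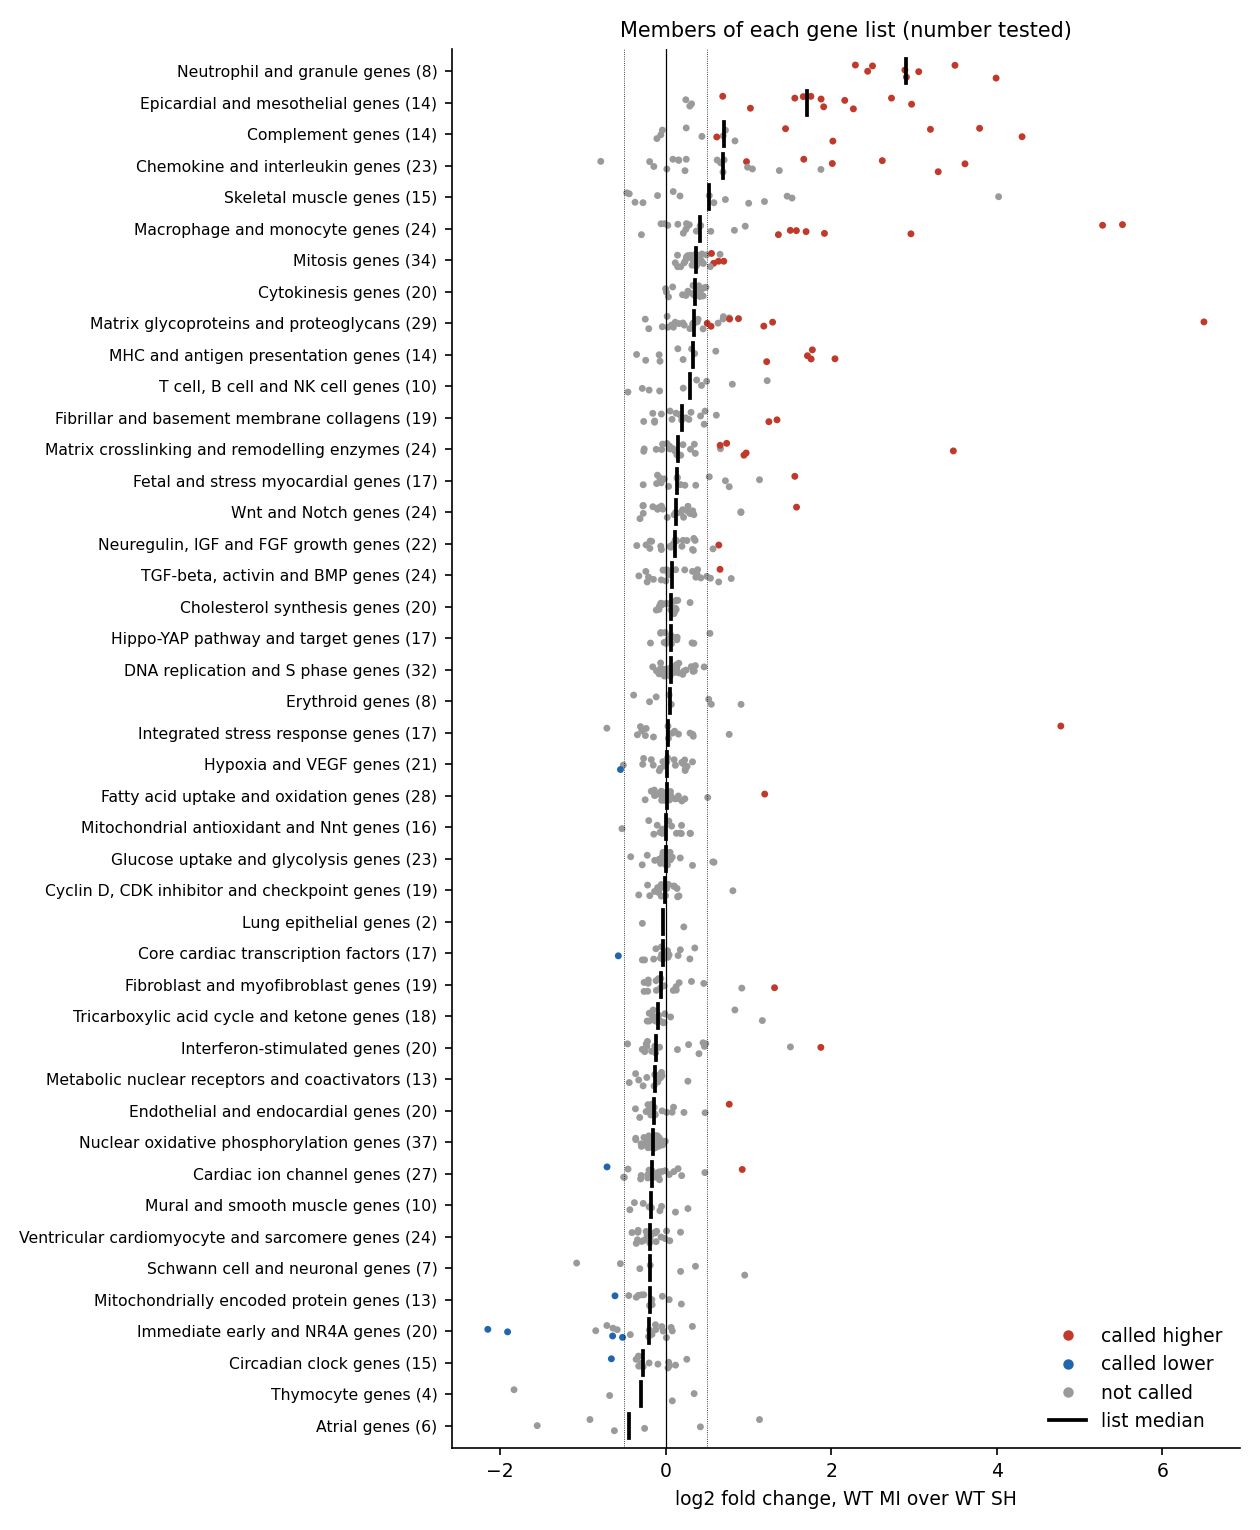
Log2 fold change of WT MI over WT SH for every tested member of each gene list with at least 2 tested members, ordered by the list median (black bar), with the number tested in brackets. Neutrophil (2.90) and epicardial (1.71) genes have the highest medians, called members are red or blue, and the dotted lines mark the fold of 0.5 required for a call.

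Genes of mitosis stood higher in infarcted hearts by small amounts. All 34 mitosis genes had a log2 fold change above 0, with a median of 0.37, a lowest value of 0.12 and a highest of 0.70. Of these 4 were called higher and 0 lower, since few passed the minimum fold, and 12 passed the adjusted p alone. Among all 20694 genes tested, 2.11% were called higher and 630 passed the adjusted p alone as higher. *Ccnb1*, the cyclin that drives entry into mitosis, was at 10.97, 10.98, 11.6 and 14.04 CPM in WT SH and at 19.96, 18.4, 15.5 and 20.2 CPM in WT MI (log2 fold change 0.64, SE 0.139, edgeR adjusted p = 0.0202). *Ska1*, which holds kinetochores to microtubules, was between 3.05 and 4.16 CPM in WT SH and at 5.82, 7.01, 5.04 and 5.12 CPM in WT MI. *Nek2*, a centrosome kinase, and *Kif2c*, a kinesin that corrects faulty attachments, rose by 0.58 and 0.55. Of the genes most used to mark cycling cells, *Mki67* had a value of 0.18, *Top2a* 0.37 and *Aurka* 0.36.

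Cytokinesis genes had nearly the same median. Of 20 tested, 0 were called in edgeR, 19 had a log2 fold change above 0 and the median was 0.35. With no minimum fold 9 passed the adjusted p as higher (12 in DESeq2), against 630 of all 20694 genes in edgeR. *Anln*, the anillin that anchors the contractile ring, had the highest value at 0.49, *Aurkb* 0.24, *Ect2* 0.41 and *Prc1* 0.43. *Septin7* and *Rhoa*, which resting cells use too, had values of -0.00 and 0.01.

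Genes of DNA replication and S phase differed less. Of 32 tested, 0 were called by edgeR or DESeq2, 22 had a log2 fold change above 0 and the median was 0.06. *Pcna*, the sliding clamp of replication, had a value of -0.02 and *Rrm1*, a subunit of ribonucleotide reductase, 0.34. Of 19 cyclin D, CDK inhibitor and checkpoint genes, 0 were called by edgeR, with a median of -0.01. *Ccnd2* had a value of -0.22.

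The mitotic calls rested on few libraries. Without WT SH replicate 4, the sham heart with the highest *Ccnb1*, 11 mitosis and 5 cytokinesis genes were called, without WT MI replicate 3 they were 7 and 3, and without WT SH replicate 2 they were 2 and 0. Mitosis genes passing the adjusted p at any fold ranged from 3 without WT MI replicate 2 to 20 without WT SH replicate 4, and cytokinesis genes from 2 to 12. Without both high-*Xist* libraries 0 of either list were called by edgeR, nor did any pass the adjusted p, while their medians stayed at 0.30 and 0.27. With high *Xist* as a covariate 2 mitosis genes were called.

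Most cardiomyocyte genes stood slightly lower in infarcted hearts, and none of the sarcomere list met the fold for a call. Of 24 ventricular and sarcomere genes 0 were called by edgeR, 3 had a log2 fold change above 0 and the median was -0.19. Without a minimum fold 7 passed the adjusted p as lower (10 in DESeq2), against 430 of all 20694 genes in edgeR. The count of 7 became 1 without WT SH replicate 3 or WT MI replicate 2 and 11 without WT SH replicate 4, the extremes over single omissions. It was 0 without both high-*Xist* libraries in edgeR. *Ttn*, the giant spring of the sarcomere, was between 49140 and 51432 CPM in WT SH and between 41853 and 44391 CPM in WT MI. *Myh6*, the fast myosin of the mature mouse ventricle, had a log2 fold change of -0.34 and its libraries overlapped. The calcium-handling genes *Ryr2* and *Atp2a2* had values of -0.34 and -0.29. CPM are shares of a library, so a small joint difference cannot be told from a larger share of other cells. Summed levels of marker genes for macrophages (93.0 to 107.5 CPM in WT SH, 128 to 180 CPM in WT MI) and for epicardium were higher in WT MI. The fibroblast, endothelial and mural lists had medians of -0.06, -0.14 and -0.18. The sarcomere list itself summed to 92800 to 110616 CPM in WT SH and 83304 to 86938 CPM in WT MI. The part of other cells in this difference was not tested.

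Genes of the stressed or fetal myocardium did not form a marked response. *Nppa*, the natriuretic peptide of atria and of strained ventricle, was at 59.97, 130, 41.1 and 57.2 CPM in WT SH and at 207, 179, 110 and 135 CPM in WT MI. The groups overlapped through WT SH replicate 2, and the fold change of 1.13 (SE 0.585) was not called (edgeR adjusted p = 0.357). *Myh7*, the slow myosin that returns in failing ventricle, ranged from 94.9 to 909 CPM among the sham hearts alone, wider than the 389 to 682 CPM of the infarcted hearts. *Mt2*, a metal-binding metallothionein, was the only member of 17 to be called (1.56, SE 0.422), at under 1.3 CPM, and edgeR called 0 without WT SH replicate 3, WT MI replicate 1, 3 or 4, or both high-*Xist* libraries. Among core cardiac transcription factors *Hand2*, a factor of the right ventricle and outflow tract, was at 56.6, 46.0, 49.2 and 42.2 CPM in WT SH and at 33.1, 32.1, 33.7 and 31.6 CPM in WT MI, and the other 16 were not called. Without WT SH replicate 1, or with high *Xist* as a covariate, *Hand2* was not called either. Of 27 cardiac ion channel genes, *Cacna1h*, a T-type calcium channel of the fetal heart, rose by 0.92 (SE 0.188), and *Kcnd2*, a channel of the transient outward current, fell by 0.71 on the log2 scale (SE 0.214). *Kcnd2* was called in only 2 of the 8 fits that left out 1 WT library, those without WT SH replicate 4 or WT MI replicate 4, and neither with high *Xist* as a covariate nor without both high-*Xist* libraries.

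Genes of energy metabolism differed by small amounts. All 37 nuclear oxidative phosphorylation genes had a log2 fold change below 0, with a median of -0.15 and a lowest value of -0.36. The summed level of the list overlapped, at 7373 to 9115 CPM in WT SH and 7028 to 7511 CPM in WT MI. In 8 genes every infarcted heart lay below every sham heart, against 5.78% of all genes tested. Of the 37 genes, 0 were called by edgeR. With no minimum fold 3 passed the adjusted p as lower, against 430 of all 20694 genes in edgeR. The count of 3 became 5 in DESeq2 and 10 in edgeR without WT SH replicate 4. The count was 1 on leaving out WT SH replicate 1, 2 or 3 or WT MI replicate 1, 2 or 4, 2 without WT MI replicate 3, and 0 in edgeR without both high-*Xist* libraries. Of the 13 mitochondrially encoded protein genes *mt-Nd6*, the only one transcribed from the light strand, was called lower (log2 fold change -0.61, SE 0.117), and the median was -0.20. Fatty acid uptake and oxidation genes had a median of 0.01 and glycolysis genes one of 0.00. *Angptl4*, a secreted inhibitor of lipoprotein lipase, was the only called gene of both lists. It stood at 11.5, 10.9, 7.69 and 7.32 CPM in WT SH and at 18.6, 21.7, 23.9 and 21.7 CPM in WT MI (log2 fold change 1.196, SE 0.331, edgeR adjusted p = 0.0609), but was called in only 2 of the 8 fits that left out 1 WT library.

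The lists of growth and signalling pathways held at most 1 called gene each, where 2.72% of all genes tested were called. *Ptn*, the heparin-binding growth factor pleiotrophin, was the only one of 22 neuregulin, IGF and FGF growth genes to be called. It was at 29.6, 25.7, 28.5 and 25.1 CPM in WT SH and at 44.5, 41.1, 44.7 and 39.6 CPM in WT MI, with narrow groups far apart (log2 fold change 0.64, SE 0.0745, edgeR adjusted p = 0.000168), and stayed called without both high-*Xist* libraries (0.71, adjusted p = 0.0024). *Igf2*, the abundant fetal growth factor, had a value of -0.05. Of 24 Wnt and Notch genes *Wnt4* was called (1.58, SE 0.357), and of 24 genes of the TGF-beta family *Tgfbi*, a target rather than a ligand, was called (0.66, SE 0.141), with 2 called without WT SH replicate 2 or WT MI replicate 4. None of 17 Hippo-YAP genes was called, with a median of 0.06. Of 21 hypoxia and VEGF genes *Kitl*, the ligand of the receptor Kit, fell by 0.55 on the log2 scale (SE 0.0848) and was not called without WT MI replicate 2. *Wnt4*, *Tgfbi* and *Kitl* were not called without both high-*Xist* libraries. *Vegfa*, the main angiogenic factor, was between 175 and 200 CPM in WT SH and between 148 and 160 CPM in WT MI, a difference of -0.28 that passed the adjusted p (0.0129) but not the fold.

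The NR4A nuclear receptors were among the genes that fell. NR4A receptors are orphan nuclear receptors that need no ligand and act mainly through the amount in which they are made, which rises within an hour of hormonal, neural or calcium signals. Many of these signals reach the gene through CREB, a factor activated by cyclic AMP. Of 20 immediate early and NR4A genes, 4 were called lower and 0 higher, where 0.604% of all genes tested were called lower. *Nr4a1* (chromosome 15, 101151980 to 101172681, GRCm39) was at 33.5, 41.1, 22.4 and 24.3 CPM in WT SH and at 8.87, 6.41, 8.99 and 8.01 CPM in WT MI. *Nr4a3* (chromosome 4, 48045153 to 48086447) was at 23.7, 27.1, 11.8 and 19.2 CPM in WT SH and at 5.95, 4.54, 3.73 and 4.21 CPM in WT MI. The infarcted hearts formed a narrow low group for both, and the sham hearts a high and wider one. The log2 fold changes were -1.91 (SE 0.204, edgeR adjusted p = 8.55e-05) and -2.15 (SE 0.247, adjusted p = 0.00016), and both remained called without both high-*Xist* libraries and in all 8 fits that left out a WT library.

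*Nr4a2* and *Fosl2*, an AP-1 subunit, had smaller falls. *Nr4a2* was between 3.06 and 5.25 CPM in WT SH and between 2.75 and 3.33 CPM in WT MI, with overlap, and was called in 4 of the 8 fits. *Fosl2* was between 42.1 and 51.3 CPM in WT SH and between 27.6 and 33.9 CPM in WT MI (-0.64, SE 0.10). The classical immediate early genes were not called. *Fos* had a log2 fold change of -0.64, *Egr1* -0.12, *Jun* -0.12 and *Junb* -0.03.

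The promoters of the 3 NR4A genes are shown because all 3 were called lower, *Nr4a2* with overlap. The core letters of the CREB recognition site also recur in them, which was a further reason for showing them. The sequences come from RefSeq on GRCm38.p6, and the 250 bases before each start site were searched for TGACG and, for the other strand, CGTCA. Capitals mark the matches. *Nr4a1* is shown from chr15:101266598-101266825 on the plus strand, *Nr4a2* from chr2:57124095-57124218 on the minus strand, and *Nr4a3* from chr4:48045059-48045177 on the plus strand.
Nr4a1: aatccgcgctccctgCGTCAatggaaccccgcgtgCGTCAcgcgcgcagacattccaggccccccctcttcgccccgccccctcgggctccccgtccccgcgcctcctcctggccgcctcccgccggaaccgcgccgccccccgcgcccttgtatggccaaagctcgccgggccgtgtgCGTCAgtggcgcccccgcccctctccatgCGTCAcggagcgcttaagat
Nr4a2: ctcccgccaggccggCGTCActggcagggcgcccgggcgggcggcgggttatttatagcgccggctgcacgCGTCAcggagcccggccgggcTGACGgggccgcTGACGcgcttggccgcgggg
Nr4a3: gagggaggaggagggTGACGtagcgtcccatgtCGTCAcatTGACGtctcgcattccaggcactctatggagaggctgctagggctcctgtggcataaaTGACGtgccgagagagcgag
Each of these windows held 4 matches. Of the 32851 promoters in the table, 17.8% held at least 1 match and 45 (0.137%) held at least 4. The whole palindrome TGACGTCA was found in 1.55% of promoters. The promoters of *Irs2* and *Fosl2* held 0 matches in this window and both listed promoters of *Per1* held 1. A match is a run of letters and was not tested as a binding site. The 3 NR4A promoters were chosen with their matches known, so their high count is no result.

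Other genes with a large fall included regulators of insulin and cyclic AMP signalling. *Irs2*, the adaptor through which insulin and IGF receptors signal, was at 77.4, 68.2, 52.8 and 57.4 CPM in WT SH and at 20.4, 19.1, 27.9 and 21.6 CPM in WT MI (log2 fold change -1.53, SE 0.199, edgeR adjusted p = 0.000561). *Sik1*, the salt-inducible kinase that restrains CREB coactivators, was at 50.4, 45.4, 41.4 and 44.2 CPM in WT SH and at 22.2, 21.2, 21.5 and 27.3 CPM in WT MI (-0.98, SE 0.0929, edgeR adjusted p = 3.38e-05). The groups were far apart for both genes. *Per1*, a clock gene that also responds to such signals, fell by 0.66 on the log2 scale (SE 0.133), the only one of 15 clock genes to be called. In all 3, as in *Nr4a1* and *Nr4a3*, WT SH stood above WT MI, which follows from their being called lower and is no result.

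Among the remaining falls with a mean of at least 1 CPM, *Slc16a7*, a carrier of pyruvate and lactate, was at 22.1, 14.8, 13.8 and 7.08 CPM in WT SH and between 5.4 and 6.34 CPM in WT MI. *Plekha7*, of cell junctions, fell by 1.08 (SE 0.204), *Hmcn2*, a large matrix protein, by 1.02 (SE 0.227), *Phospho1*, a phosphatase of mineralisation, by 1.15 (SE 0.243), *Cd247*, the zeta chain of the T cell receptor, by 1.39 (SE 0.299), *Car7* by 0.99 and *Cpn2* by 0.98. For *Plekha7*, WT MI replicate 4 at 19.02 CPM lay just under WT SH replicate 4 at 19.11 CPM. The pseudogenes *Rps15a-ps7* (-2.66, SE 0.621) and *Nlrp5-ps* (-1.09) share sequence with other genes, and their counts are uncertain for this reason.

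The same operation in KO hearts gave more calls. On the same 20694 genes, 1534 (7.41%) were called between KO MI and KO SH, 1102 higher (5.33%) and 432 lower (2.09%). Of the 437 genes that rose in WT hearts 236 (54.0%) also rose in KO hearts, which is 21.4% of the genes that rose there, and 389 had a change of the same sign. Their median log2 fold change was 0.72 in KO hearts. Of the 125 genes that fell in WT hearts 33 (26.4%) fell in KO hearts, which is 7.64% of the genes that fell there, and 102 shared the sign with a median of -0.26. No gene that rose in WT hearts was called lower in KO hearts, whereas *Nr4a3* fell in WT and was called higher in KO hearts. The KO groups were sex-balanced by *Xist*, unlike the WT groups, so the responses differ in this as well.

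The difference between the WT and KO responses was called for 5 genes (0.0242%), 1 of them higher (0.00483%) and 4 lower (0.0193%) in the WT response, while 2778 genes (13.4%) had an unadjusted p under 0.05. A gene called in WT and not in KO hearts was thus rarely shown to differ in this fit, though DESeq2 and some other fits called more. *Nr4a3* had the largest difference, at -2.99 (SE 0.362, edgeR adjusted p = 0.00357). Its log2 fold change was -2.15 in WT and 0.84 in KO hearts. *Sik1* had a difference of -0.84 (SE 0.132, edgeR adjusted p = 0.043) and *Gm43605*, an unconfirmed transcript on chromosome 5, one of -1.68 (SE 0.235, adjusted p = 0.0132). *Tomm40*, the pore of the outer mitochondrial membrane, had one of -0.63 (edgeR adjusted p = 0.0969) and *Bhlhb9*, an X-linked gene, one of 0.51 (adjusted p = 0.0613). *Nr4a3* and *Gm43605* were called in all 16 fits that left out 1 library, *Sik1* in 11, *Bhlhb9* in 4 and *Tomm40* in 3. DESeq2 called 289 genes for the same difference. The edgeR count rested on KO MI replicate 7 and WT SH replicate 4, without which it was 822 and 154, and it lay between 2 and 6 without any other single library. It was 2 without WT SH replicate 1 or 2, WT MI replicate 1 or KO MI replicate 3, and 3 without KO SH replicate 1, 2 or 4 or WT MI replicate 3.

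Levels in the 4 groups differed in their order from gene to gene. Mean *Nr4a3* was 20.4 ± 6.63 CPM in WT SH and 4.61 ± 0.952 CPM in WT MI, against 2.68 ± 0.612 CPM in KO SH and 4.76 ± 1.62 CPM in KO MI (SD, n = 4 each). Mean *Sik1* was 45.3 ± 3.75, 23.0 ± 2.88, 18.6 ± 2.16 and 16.9 ± 0.993 CPM in the same order, and mean *Gm43605* 27.2 ± 3.76, 6.55 ± 1.40, 5.11 ± 0.447 and 3.97 ± 1.06 CPM. For these 3 genes the WT SH libraries stood high and the other three groups low. The other two called genes had other orders. Mean *Tomm40* was 22.5 ± 0.785 CPM in WT SH and 18.7 ± 1.90 CPM in WT MI, against 17.6 ± 0.439 CPM in KO SH and 22.5 ± 2.38 CPM in KO MI. Mean *Bhlhb9* was 37.5 ± 1.88 and 44.6 ± 1.18 CPM in the WT groups and 53.2 ± 2.08 and 44.5 ± 3.87 CPM in the KO groups. *Nr4a1* also stood high in WT SH and low in the other groups, at 30.3 ± 8.68, 8.07 ± 1.19, 5.83 ± 1.303 and 3.21 ± 0.887 CPM. So did *Irs2*, at 63.9 ± 11.05, 22.2 ± 3.89, 18.2 ± 4.71 and 14.3 ± 4.51 CPM. Differences between the responses were not called for *Nr4a1* and *Irs2* (edgeR adjusted p = 0.195 and 0.154). In KO hearts *Nr4a3* was called higher after MI (0.84), whereas *Nr4a1* was called lower (-0.87). The WT SH libraries were also the only group without a high-*Xist* library. Among the infarcted WT hearts, *Nr4a1* was 6.41 and 8.01 CPM where *Xist* was high and 8.87 and 8.99 CPM where it was low, all under the lowest sham heart.

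**Figure D4:**
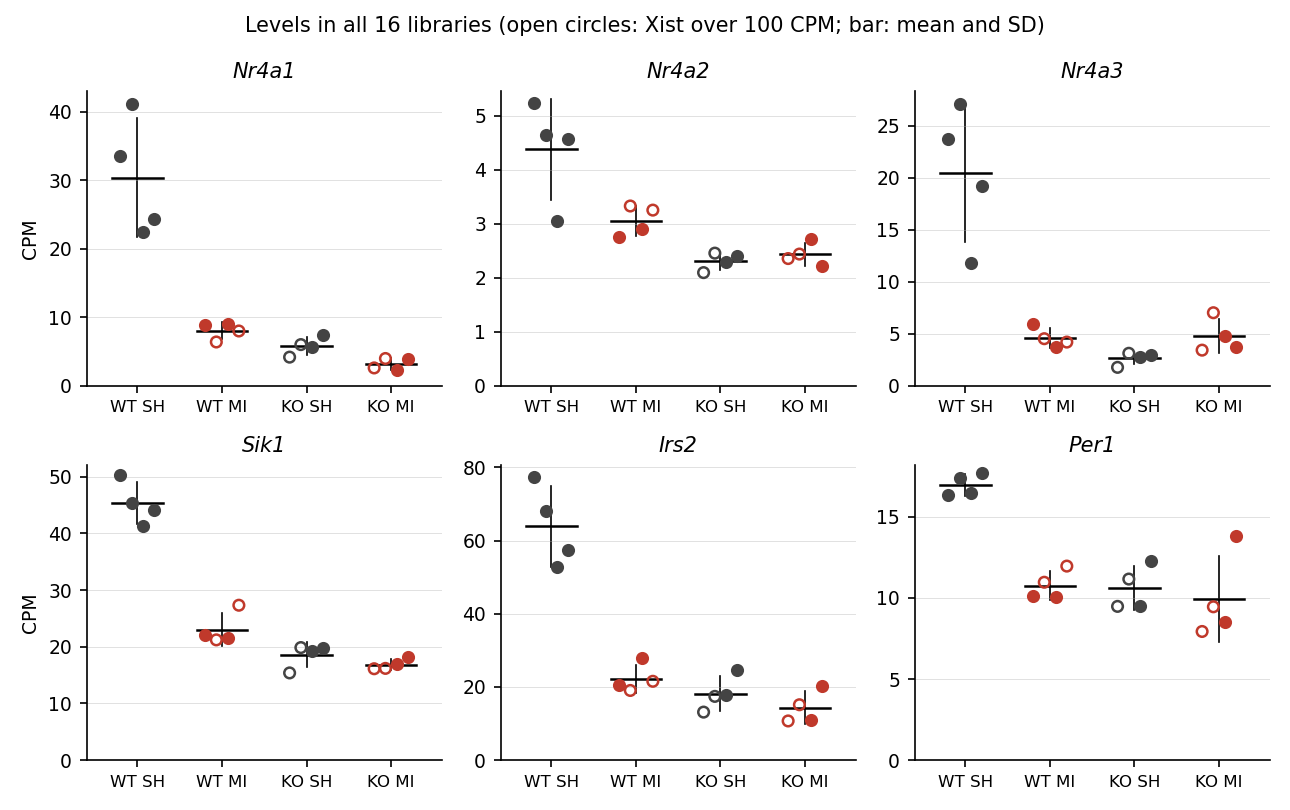
CPM of *Nr4a1*, *Nr4a2*, *Nr4a3*, *Sik1*, *Irs2* and *Per1* in all 16 libraries by group, with a bar for the mean and a line for the SD of 4 libraries. Open circles mark libraries with *Xist* over 100 CPM, and in each panel the WT SH libraries hold the highest mean.

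Inflammatory and epicardial genes rose in both genotypes. The median of the neutrophil list was 2.90 in WT and 1.56 in KO hearts, and that of the epicardial list 1.71 and 0.81. For macrophage genes the order was the reverse, with 0.42 and 1.06, and likewise for mitosis genes, with 0.37 and 0.65, and cytokinesis genes, with 0.35 and 0.64. Of the 34 mitosis genes 31 were called higher in KO hearts and 4 in WT hearts, where 5.33% and 2.11% of all genes tested were called higher. In edgeR's fit over all libraries these lists hold no gene called for a difference between the responses, and the medians are a description. DESeq2 called 289 genes for that difference, and how many belong to these lists is not given here. Equal responses of the genotypes were thus not shown. *Muc16* rose by 2.27 in WT hearts and had a value of 0.69 in KO hearts, where sham hearts already stood between 10.4 and 16.5 CPM. *Angptl4* had a value of -0.42 in KO hearts.

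**Figure D5:**
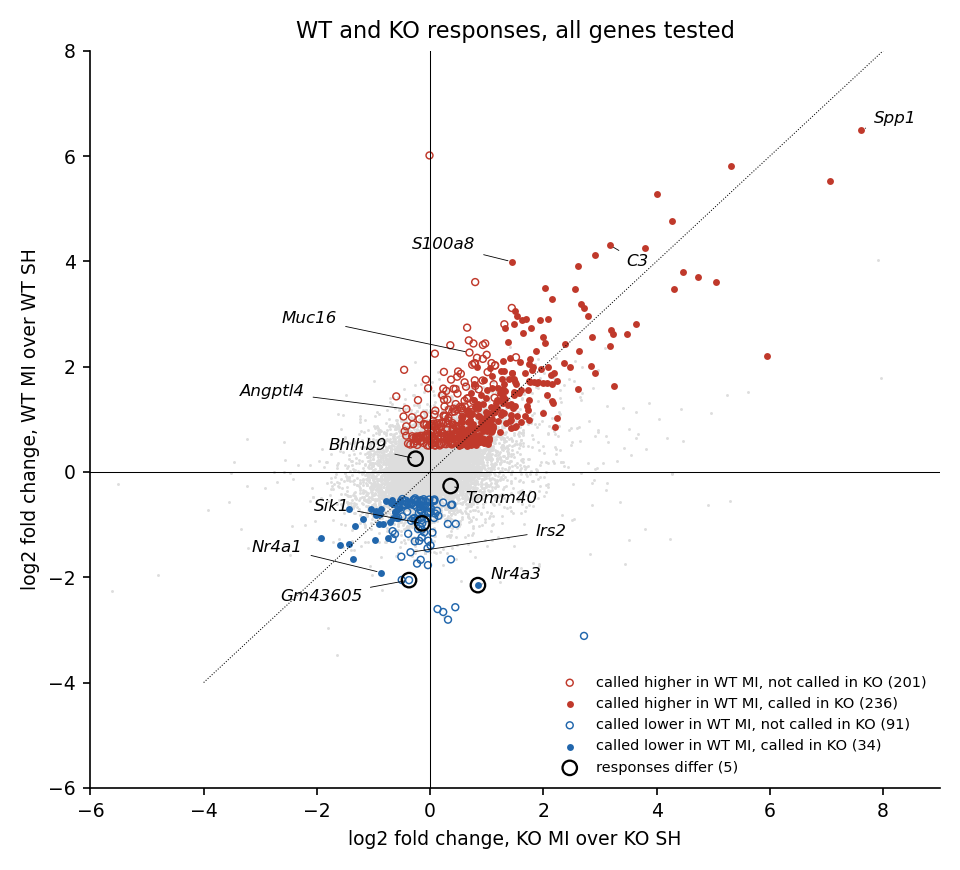
Log2 fold change of WT MI over WT SH against that of KO MI over KO SH for the 20694 genes tested, with genes called in WT hearts in red (higher) or blue (lower), filled where also called in KO hearts, and the dotted line marking equal change. Most genes that rose in WT hearts lie right of 0, and the 5 genes with a black ring, *Nr4a3* among them, have a called difference between the responses.

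Markers of tissue from outside the ventricle were not called in edgeR's fit over all libraries. Of the 15 tested skeletal muscle genes 0 were called there, while DESeq2 called 1 higher, edgeR on the WT libraries alone 2, and the same with the replicate number as a block 4. Of these 15 genes *Myh3*, the embryonic myosin, was at 0.273, 5.16, 1.799 and 0.0651 CPM in WT MI and at most 0.171 CPM in WT SH, so that WT MI replicate 2 held most of it. No gene was called among the 4 thymocyte, 2 lung epithelial, 1 adipocyte, 8 erythroid, 7 Schwann cell and neuronal and 6 atrial genes that could be tested in the fit over all libraries. *Hba-a1*, of red cells, had a value of -0.12. No gene was called in the lists of tricarboxylic acid cycle and ketone, cholesterol synthesis, metabolic nuclear receptor and mitochondrial antioxidant genes in the same fit, with medians of -0.10, 0.06, -0.13 and 0.00, and of 17 integrated stress response genes *Slc7a11* was the only one called.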

How the data were processed

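Total RNA from whole ventricles was sequenced after removal of ribosomal RNA with a strand-specific kit. The deposited values were expected counts per gene from RSEM, which divides reads that map to several genes, so counts of paralogs and pseudogenes are uncertain, and the authors gave them as whole numbers. The study's methods name Skewer, STAR and RSEM on GRCm39, whereas the submitters' processing notes list bcl2fastq 2.17, cutadapt 3.4, FastQC, HISAT2 2.2.1, RSEM 1.1.17 and DESeq2. Which of these made the table was not resolved, and the annotation release is not given in the sources used here. Names and positions came from GENCODE on GRCm39.

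Counts were analysed in edgeR 4.0.16 (R 4.3.3, limma 3.58.1) with TMM factors, 1 coefficient for each of the 4 groups over all 16 libraries, and its quasi-likelihood test, with p-values adjusted by Benjamini-Hochberg over the 20694 genes tested. DESeq2 1.42.0, other filters and thresholds, high *Xist* (over 100 CPM) as a covariate, the WT libraries alone, the replicate number as a block and omission of each library were the alternatives. The scripts were tested on simulated counts. Plots used Python 3.11.15 and matplotlib 3.10.9. Replicates are separate mice by the study's account. SE and SD include variation between mice, whereas floors cover counting error only.

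The genes compared and the gene lists were chosen with earlier results of these data known. Named genes were the 12 largest rises and 12 largest falls among called genes with a mean of at least 1 CPM, no overlap and a proper symbol, up to 4 called members of each list with the smallest p, and for lists with fewer than 2 called members the 2 most abundant. Other list members were named for their function after their values were seen, and some genes are not reported here. No label says that numbers 1 to 4 pair the WT libraries, and they were not paired in the main fit. Deviations of same-numbered libraries correlated between -0.0266 and 0.00403, which with 4 libraries in a group cannot settle the question.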

Additional observations from a re-analysis of the deposited data

Results flagged for a closer look

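In 276 groups of 4 libraries of named genes, the highest or lowest library stood far from the other three by Dixon's criterion in 14, where chance gives 13.8. In WT MI these were *Rps15a-ps7* in replicate 4 (1.28 CPM), *Mmp19* in replicate 3 (2.5 CPM), *Lyz2* and *Ifit2* in replicate 1 (12.9 and 19.3 CPM), *Hspb7* in replicate 2 (457 CPM) and *Cat* in replicate 4 (124 CPM). In WT SH they were *Tbx20*, *Rhoa* and *Mt2* in replicate 1 (196, 213 and 0.0384 CPM), *Hba-a2* and *Ppargc1a* in replicate 2 (227 and 101 CPM), *Hmcn2* in replicate 3 (20.9 CPM), and *mt-Nd6* and *Cat* in replicate 4 (2280 and 97.4 CPM).

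The WT and KO responses differed, by the test of the difference itself, for *Nr4a3* (-2.99), *Gm43605* (-1.68), *Sik1* (-0.836), *Tomm40* (-0.629) and *Bhlhb9* (0.509), as log2 fold change in WT minus that in KO hearts.

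Counts also stood above the sham level in genes with too few sham counts to be tested. Summed over the 4 WT MI libraries and the 4 WT SH libraries, *Mmp12*, a macrophage elastase, had 1735 and 5 counts, the chemokine *Cxcl2* 229 and 6, and the neutrophil genes *Mmp8* 129 and 6, *Mpo* 99 and 0, *Camp* 62 and 8, and *Cd177* 49 and 5. The skeletal muscle genes *Mybpc1* and *Ryr1* had 88 and 69 counts in WT MI, against 6 and 4 in WT SH.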

How the results depend on the processing

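The counts of called genes (562, of which 437 higher and 125 lower) were 134, 99 and 35 without both high-*Xist* libraries, and ranged over the omission of each WT library from 279 to 635, 215 to 482 and 64 to 153. With no minimum fold 1060 genes were called and 430 were lower, and at an adjusted p under 0.05 82 were lower. DESeq2 called 688. The 5 genes whose responses differed became 289 in DESeq2, 39 with no filter, 8 in a robust fit and 3 at an adjusted p under 0.05, and between 2 and 822 on omission of a library. The cause was not tested. A replicate block in the WT libraries gave 534 calls, 414 higher and 120 lower, against 666 without it. No label says that the replicate numbers pair the samples. Of the 72 named genes called in the main test, 72 were kept in DESeq2, 68 under the block, 62 with *Xist* as a covariate, 59 without WT MI replicate 2 and 40 of 71 without both high-*Xist* libraries, and 55 were kept in all 8 fits that left out a WT library. No named gene that was called changed sign, but refits of the same libraries leave little room for such a change. The omission of both high-*Xist* libraries leaves 2 infarcted hearts, and so rests on fewer samples.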

Other observations

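Several gene families outside the lists, chosen after their values were seen, were also called higher in WT MI. The stefin genes *Stfa3*, *Stfa2l1* and *Stfa2*, protease inhibitors of myeloid cells, rose by 3.61, 2.80 and 2.56. The C-type lectin receptors *Clec4e*, *Clec4d* and *Clec4n* rose by 2.70, 2.43 and 1.28, *Itgb2*, the common chain of leukocyte integrins, by 1.99, and *Cybb* and *Ncf1*, of the phagocyte oxidase, by 1.36 and 0.97. *Igf2bp3*, an RNA-binding protein of embryonic tissue, was at 7.61, 6.36, 6.89 and 7.71 CPM in WT SH and at 12.7, 11.96, 9.83 and 12.5 CPM in WT MI. *Dnm3os*, a noncoding RNA of mesenchyme, was between 14.1 and 15.7 CPM in WT SH and between 22.9 and 24.3 CPM in WT MI, and *Hmga2*, a chromatin protein of embryonic cells, rose by 1.297. Among the falls, *Mapt*, which encodes tau, was between 28.5 and 31.0 CPM in WT SH and between 13.1 and 18.4 CPM in WT MI, and *Neat1*, a nuclear noncoding RNA, went from between 507 and 560 CPM to between 335 and 400.5 CPM.

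In 65 genes the sham libraries summed to under 10 counts while the infarcted libraries summed to at least 40, and 6 genes had the opposite pattern. These genes were chosen by their counts, and *Gm26992*, with 0, 498, 6 and 517 counts in WT MI, was high in the same infarcted libraries as *Xist*. *Il1rn*, the antagonist of interleukin 1, had 30, 94, 99 and 70 counts in WT MI and at most 3 in WT SH, *Itgax*, an integrin of dendritic cells and macrophages, 25, 82, 88 and 73, and *Saa3*, an acute phase protein, 21, 81, 28 and 25.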
